A study of Rattus norvegicus with 2 samples.

Results

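The genes described here belong to 2 linked stress programs, the targets of the transcription factor ATF4 and the genes of the unfolded protein response. They were chosen by name, as all probe sets that the platform annotation assigns to exactly 1 gene among 39 listed ones, with heat shock, DnaJ and transporter genes left out. Such probe sets were found for 38 of the 39 genes, out of 14217 genes in all, and 52 probe sets represented them. Derl3, a member of the derlin family that helps export misfolded proteins, had none, so no intensity is given for it and only its promoter is described. The cells were microglia, brain macrophages, of the rat strain Sprague Dawley, grown in DMEM with fetal calf serum. One group had 3 h of oxygen-glucose deprivation (OGD), which imitates the lack of blood supply in a stroke, and the other was resting cells without exposure. Each group was measured on 1 Affymetrix array, so no difference below has a test, an error across cultures or a replicate check. Whether the cells were primary, and how many animals or cultures each array pooled, is not stated in the labels.

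Cells sense misfolded proteins in the endoplasmic reticulum through the kinases PERK and IRE1 and the membrane protein ATF6, and they sense amino acid shortage through the kinase GCN2. PERK and GCN2 phosphorylate the initiation factor eIF2, which lowers general translation and raises translation of ATF4 from an existing mRNA. IRE1 splices the Xbp1 mRNA, and ATF6 is released by proteolysis, so these steps can act without a change in the amount of the Atf4, Xbp1 or Atf6 transcript. ATF4 then acts on genes of amino acid synthesis, tRNA charging and stress feedback, while ATF6 and XBP1 act on chaperones and degradation factors of the endoplasmic reticulum.

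Some promoters of these genes carry sequences through which ATF4, or ATF6 and XBP1, are known to act, and a few are shown first as context for the values. RefSeq promoters of assembly GRCr8, from 250 bases before to 50 after each annotated start, were found for 33 of the 39 members. The composite site of C/EBP and ATF factors, searched as TGATGNAA on both strands, was present in 7 of these 33 members, against 3.98% of all 33469 promoters. It lay before Fgf21, Nupr1, Chac1, Trib3, Pck2, Nars1 and Herpud1. The endoplasmic reticulum stress element, searched as CCAAT and CCACG with 9 bases between them on either strand, was present in 5 members, Creld2, Canx, Xbp1, Calr and Derl3, against 0.0657% of all promoters. A second form of this element, ATTGG and CCACG with 1 base between them, was present in Hyou1 and Herpud1, against 0.0508% of all promoters. The unfolded protein response element TGACGTGG was present in Hyou1 alone of the members, against 0.595% of all promoters. In Hyou1 it overlapped 1 of the 2 copies of the second stress element. Members are counted by gene, while these percentages are by promoter. Counted by gene, the 4 motifs were present, in the order given, in 1141, 21, 17 and 187 of 27457 genes. In the stretches below, read 5′ to 3′ along the gene, capitals mark the bases matched by the motif, on whichever strand it lies. For Chac1, Trib3, Nupr1, Fgf21 and the first Herpud1 line this is the composite site, for Xbp1, Canx, Calr and Creld2 the stress element, and for Hyou1 and the second Herpud1 line its second form.
Chac1, chr3:126795949-126795986, plus strand: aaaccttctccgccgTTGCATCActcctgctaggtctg
Trib3, chr3:161275534-161275569, minus strand: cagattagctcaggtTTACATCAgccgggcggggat
Nupr1, chr1:190645934-190645971, minus strand: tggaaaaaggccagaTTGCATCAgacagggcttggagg
Fgf21, chr1:105221497-105221534, minus strand: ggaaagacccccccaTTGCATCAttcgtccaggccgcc
Herpud1, chr19:10614869-10614906, minus strand: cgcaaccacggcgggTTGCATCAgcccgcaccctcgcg
Xbp1, chr14:84604543-84604591, plus strand: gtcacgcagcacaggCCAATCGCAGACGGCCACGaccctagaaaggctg
Canx, chr10:35158054-35158102, minus strand: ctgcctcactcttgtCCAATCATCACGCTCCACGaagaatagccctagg
Calr, chr19:40213120-40213168, plus strand: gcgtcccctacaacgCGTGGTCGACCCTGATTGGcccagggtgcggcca
Creld2, chr7:121789224-121789272, plus strand: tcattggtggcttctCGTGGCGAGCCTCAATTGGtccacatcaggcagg
Hyou1, chr8:53602679-53602719, plus strand: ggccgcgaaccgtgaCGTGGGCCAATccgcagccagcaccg
Herpud1, chr19:10614806-10614846, minus strand: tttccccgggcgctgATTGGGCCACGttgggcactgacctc

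Herpud1 was the member with a match to both the composite site and a stress element, as the map of motif matches shows. Of the 33 members with a promoter, 13 had at least 1 of the 4 motifs and 20 had none, among them Asns, Ddit3 and Ppp1r15a. A match is a description of these letters and not evidence that a factor was bound. No match says only that the letters are not in this window.

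**Figure D1:**
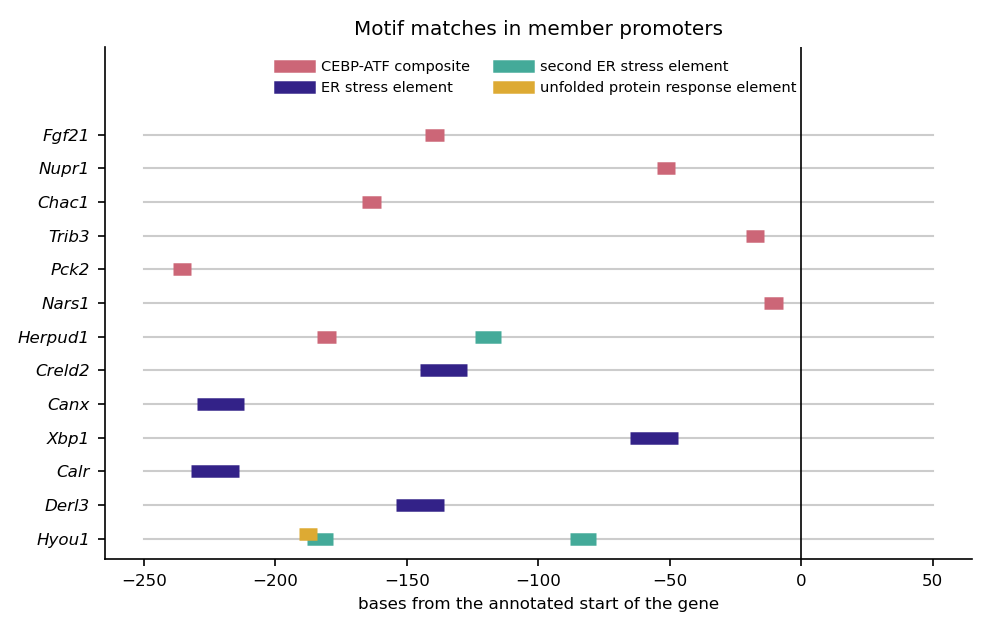
Motif matches in the promoters of the 13 members that had at least 1. The horizontal axis is the distance in bases from the annotated start, each grey line is the window of 250 bases before to 50 after it, and colours mark the 4 motifs; the composite site is seen in 7 members and either stress element in 7.

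The values are linear intensities, 1 per probe set and array, and each array's median over probe sets other than controls was taken as the floor, 19.7 on the OGD array and 19.6 on the resting array. A gene was called measured when its brightest probe set was above the floor on at least 1 array, which held for 9580 of 14217 genes and for 37 of the 38 members. All 37 were above it on both arrays. Psat1, a phosphoserine aminotransferase of serine synthesis, was not, with an intensity of 9.10 on the OGD array and 10.2 on the resting array, and is given no fold. Intensities of different probe sets are not comparable, because they bind with different strength, so levels are compared below only between the arrays.

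Transcripts of both programs, like those of most genes, were at nearly the same level on the OGD and the resting array. Of all measured genes, 92.5% lay within 1.2-fold, so the low counts of members below are not particular to these programs. Of the 37 measured members, 0 were higher and 0 lower by at least 1.5-fold, the threshold that the series' design text names, beside 0.0731% of all measured genes higher and 0.0418% lower. At the smaller threshold of 1.2-fold, 1 member was higher and 0 were lower, beside 3.56% of all measured genes higher and 3.97% lower. That member was Aldh18a1. The log2 difference, OGD minus resting, had a median of 0.01 and an SD of 0.13 over the members, against a median of -0.01 and an SD of 0.15 over all measured genes. By any amount, 19 members were higher, 17 were lower and 1 was equal, while 42.8% of all measured genes were higher and 51.3% lower. No error of these differences can be estimated. The spread between probe sets of 1 gene had a pooled SD of 0.15 over 1902 genes and 0.10 over the 8 members that had several probe sets above both floors. All probe sets were read on the same arrays, so this SD holds no variation between arrays or cultures. Of the 37 members, 32 were more than 2-fold above the floor, and these ranged from -0.16 to 0.25. Of the deposited differences, 73.0% had a size shared to 8 decimals with another probe set, including those of 23 of the 52 probe sets of the members, for a reason not given in the sources used here. Whether the probe sets, and so the SD between them, are independent measurements is therefore not known.

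**Figure D2:**
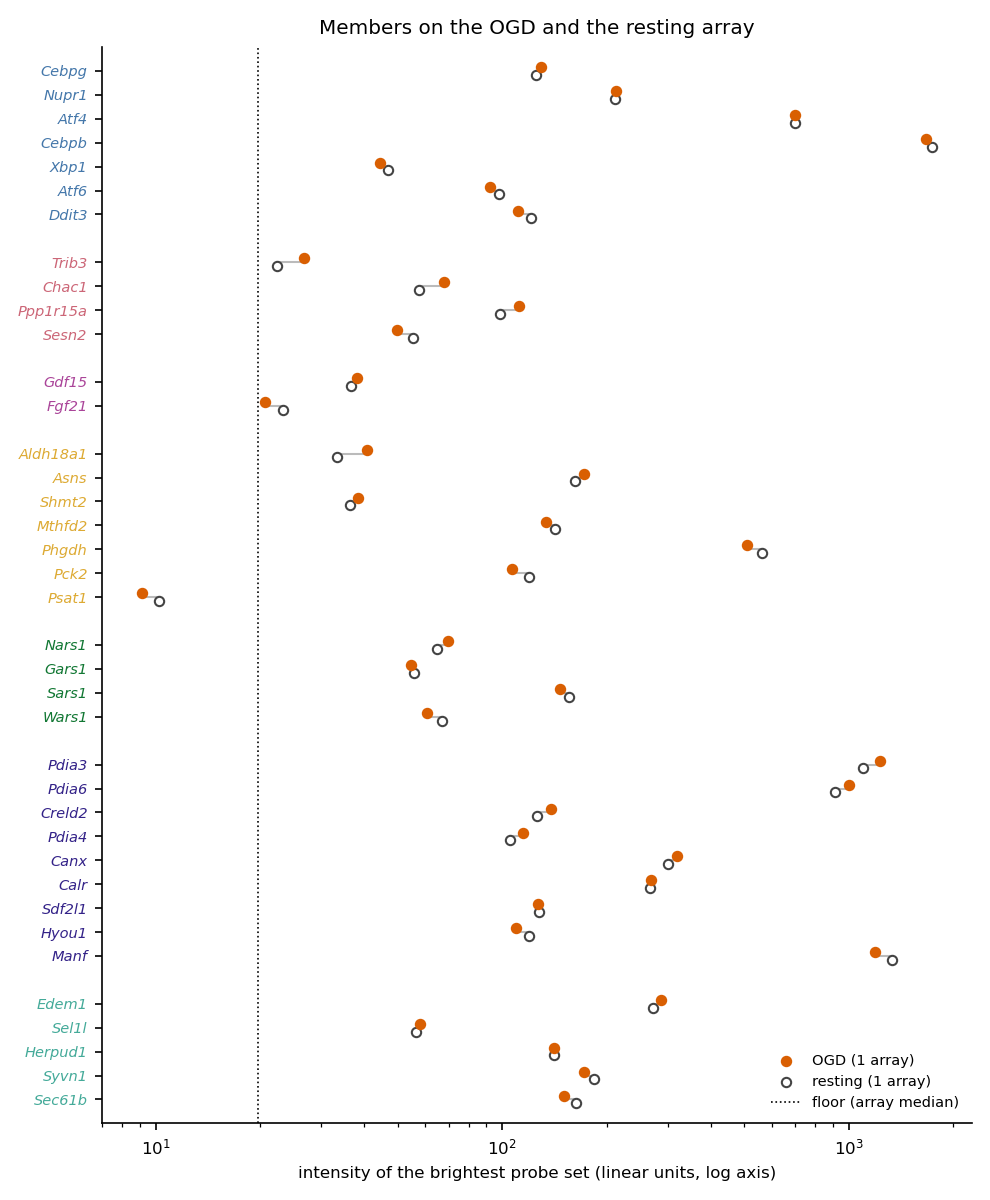
Intensity of the brightest probe set of the 38 members on the OGD array (filled) and the resting array (open), on a log axis, grouped by role. The dotted line is the floor of 19.7; only Psat1 lies under it, and the points of most pairs nearly touch.

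The transcription factors and regulators at the head of the pathway had differences from -0.12 to 0.05, with a median of -0.06, 2 of 7 higher, 4 lower and 1 equal. Atf4, the central factor of the integrated stress response, had an intensity of 700.6 on both arrays, equal in every deposited digit. The arrays also had identical values for 8.69% of all probe sets, and for 6.25% of those above the floor on at least 1 array. This equality may therefore not show an unchanged level. Atf6, the membrane-bound factor of the unfolded protein response, had 92.5 on the OGD array and 98.0 on the resting array, and its other probe set had 23.1 and 23.4. Both probe sets of Atf6 were thus lower on the OGD array, with log2 differences of -0.08 and -0.02. Of 1902 genes with several probe sets above both floors, 48.2% had probe sets of opposite sign, as had 3 of 8 such members. A shared sign of probe sets, here and below, therefore says little about a direction. Xbp1, the substrate of IRE1, had 44.5 on the OGD array and 46.8 on the resting array, and the single probe set does not tell its spliced form from its unspliced one. Ddit3, which encodes CHOP, a factor tied to cell death under lasting stress, had 111.4 on the OGD array and 120.9 on the resting array, a log2 difference of -0.12. That was the lowest of this group and was exceeded in size by 38.2% of the genes above the floor on both arrays.

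Among the partners of ATF4, Cebpb, a C/EBP factor of inflammatory and stress genes, had 1672 on the OGD array and 1747 on the resting array. Cebpg, which forms dimers with ATF4, had 129.3 on the OGD array and 124.7 on the resting array. Nupr1, a small stress-induced chromatin protein whose promoter carries the composite site shown above, had 213.3 on the OGD array and 211.4 on the resting array. These 3 differences, -0.06, 0.05 and 0.01, lay inside the spread between probe sets.

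The feedback and stress effectors were the role group with the highest median, 0.22, and 3 of its 4 members were higher. Trib3, a pseudokinase that binds ATF4, had 26.8 on the OGD array and 22.4 on the resting array in its brightest probe set, a 1.197-fold difference just under the 1.2-fold threshold. Its other probe sets had 23.7 and 20.7 on the OGD array and 23.5 and 20.6 on the resting array, log2 differences of 0.02 and 0.01. The probe sets of Trib3 therefore disagreed with an SD of 0.14, and all 3 lay near the floor. The names of the brightest and of the dimmest one carry a suffix that, by the array's naming, marks probes shared by several transcripts. Chac1, an enzyme that degrades glutathione, had 68.1 on the OGD array and 57.3 on the resting array in its single probe set. It was 1.19-fold higher, and 9.55% of the genes above the floor on both arrays had a larger difference in either direction. Ppp1r15a, the GADD34 subunit that directs a phosphatase to eIF2 and so restores translation, had 111.9 on the OGD array and 98.5 on the resting array. It was 1.14-fold higher, a size exceeded by 20.04% of genes. Sesn2, an inhibitor of mTORC1 signalling induced by ATF4, went the other way in its probe set above the floor, with 49.5 on the OGD array and 55.2 on the resting array. Its other probe set was under the floor on both arrays, at 11.97 on the OGD array and 9.36 on the resting array, and is not read.

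The group's median rested on its single-probe-set members and on the choice of probe set for Trib3. Without suffixed probe sets the median was 0.10, and with the mean over probe sets it was 0.14. Chac1 stayed between 0.22 and 0.26 and Ppp1r15a between 0.17 and 0.20 under all alternatives that gave a value. Both have a single probe set that lay above every floor tried, so alternatives of the probe set or the floor could not change their values. Only the pseudocount, centring, quantile and loess settings could.

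Both secreted stress hormones were close to the floor. Fgf21, a metabolic hormone, had 20.6 on the OGD array and 23.2 on the resting array, a log2 difference of -0.17 and the lowest of all measured members. Gdf15, a hormone of the TGF-beta family released under mitochondrial and integrated stress, had 38.1 on the OGD array and 36.5 on the resting array. Its log2 difference was 0.06. The pair thus pointed in opposite directions.

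The enzymes of serine, one-carbon and amino acid synthesis spanned the widest range of the groups, from -0.16 to 0.29, with 3 higher, 3 lower and a median of -0.004 that changed sign with centring, quantile or loess scaling. Aldh18a1, which starts proline synthesis from glutamate, had 40.8 on the OGD array and 33.2 on the resting array in its single probe set. It was 1.23-fold higher and ranked 223 from the top among 9168 genes above the floor on both arrays. With the floor at the 70th percentile its resting value was covered and its log2 difference was 0.06. Asns, asparagine synthetase and a classical ATF4 target, had 172.6 on the OGD array and 162.6 on the resting array. Shmt2, the mitochondrial serine hydroxymethyltransferase, had 38.4 on the OGD array and 36.4 on the resting array. Asns and Shmt2 had log2 differences of 0.09 and 0.08, near the median size of 0.09 over all measured genes.

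The other 3 measured enzymes were lower on the OGD array. Phgdh, the first enzyme of serine synthesis, had 508.8 on the OGD array and 562.5 on the resting array, a log2 difference of -0.14. Mthfd2, a mitochondrial folate enzyme next to Shmt2 in the pathway, had 133.7 on the OGD array and 141.8 on the resting array. Shmt2 and Mthfd2 thus pointed in opposite directions. Pck2, the mitochondrial phosphoenolpyruvate carboxykinase, had 106.7 on the OGD array and 119.0 on the resting array, and its other probe set had 39.3 and 46.1. Both probe sets of Pck2 were lower, with log2 differences of -0.16 and -0.23, which made it the member with the largest lower value in a probe set above the floor. It is also a member with the composite site before its start.

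Of the 4 aminoacyl-tRNA synthetases, which load amino acids onto tRNAs, 1 was higher and 3 were lower, with a median of -0.06 in the brightest probe sets that was 0.06 in the next brightest probe sets of 2 of them. Nars1, for asparagine, had 69.9 on the OGD array and 64.9 on the resting array. Sars1, for serine, had 146.6 on the OGD array and 156.2 on the resting array. Wars1, for tryptophan and also induced by interferon, had 60.8 on the OGD array and 67.0 on the resting array, while its other probe set had 25.5 and 24.2. Gars1, for glycine, had 54.7 on the OGD array and 55.7 on the resting array, and 22.70 and 22.02 in its other probe set. For Wars1 and Gars1 the 2 probe sets disagreed in sign, as in 48.2% of all genes with several probe sets above both floors.

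Genes for protein folding in the endoplasmic reticulum had a median of 0.09, with 6 of 9 higher and 3 lower. This median was -0.01 in the next brightest probe sets, which were measured for 2 of the genes. Of the protein disulfide isomerases, which form disulfide bonds, Pdia3 had 1229 on the OGD array and 1100.0 on the resting array. Pdia6 had 1002 on the OGD array and 912.7 on the resting array. Pdia4 had 114.7 on the OGD array and 105.2 on the resting array. These 3 isomerases were higher by a like amount, with log2 differences of 0.16, 0.13 and 0.12, but the other probe set of Pdia3 had -0.06 near the floor. The 3 sizes were each exceeded by between 26.1% and 36.5% of all genes above the floor on both arrays. Of the 10 other measured folding enzymes of the pathway, further isomerases among them, 3 were higher and 7 lower, with a median of -0.06. Of all measured genes, 42.8% were higher and 51.3% lower.

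Canx, the membrane-bound lectin chaperone calnexin, was one of 2 members with 3 probe sets above both floors, and all 3 were higher. They had 319.0, 108.2 and 70.7 on the OGD array and 300.5, 104.5 and 68.5 on the resting array. Their log2 differences of 0.09, 0.05 and 0.05 had an SD of 0.02 between them. Each of these sizes was also found in other probe sets of the arrays, being held by 230, 6 and 29 probe sets in all. Calr, the soluble lectin chaperone calreticulin, had 268.4 on the OGD array and 266.9 on the resting array. Creld2, a secreted disulfide isomerase-like protein, had 138.1 on the OGD array and 126.3 on the resting array. Canx, Calr and Creld2 all carry the stress element, and Creld2 had the largest difference of them, 0.13.

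The remaining folding genes were lower on the OGD array, 1 of them by little. Sdf2l1, which assists the chaperone BiP, had 127.0 on the OGD array and 127.5 on the resting array, a log2 difference of -0.01 that became 0.02 with quantile or loess scaling. Hyou1, the hypoxia-induced chaperone ORP150, had 109.4 on the OGD array and 119.2 on the resting array. Its other probe set was under the floor on both arrays, at 18.11 on the OGD array and 14.04 on the resting array. Manf, a secreted neurotrophic factor retained in the endoplasmic reticulum until calcium is lost, had 1192 on the OGD array and 1332 on the resting array. Its log2 difference of -0.16 was as far below 0 as that of Pdia3 was above it. Pdia6, Creld2, Hyou1 and Manf, which are commonly induced together, had log2 differences of 0.13, 0.13, -0.12 and -0.16 and so did not share a direction. These sizes were near the SD of 0.15 between probe sets of 1 gene, and each rests on 1 array per group.

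Genes for translocation into, and degradation from, the endoplasmic reticulum had a median of 0.01, with 3 of 5 measured members higher and 2 lower. Edem1, a lectin that hands misfolded glycoproteins to degradation, had 286.9 and 25.5 on the OGD array and 272.8 and 24.3 on the resting array in its probe sets above the floor. Both gave a log2 difference of 0.07. Herpud1, an organiser of the degradation complex with both kinds of motif in its promoter, had 141.5 on the OGD array and 140.7 on the resting array. Sel1l, the adaptor of the ubiquitin ligase complex, had 58.0 on the OGD array and 56.2 on the resting array. Syvn1, the ubiquitin ligase HRD1 to which Sel1l binds, had 172.1 on the OGD array and 183.9 on the resting array. Sec61b, a subunit of the translocation channel, had 150.8 on the OGD array and 163.2 on the resting array. The ligase Syvn1 and its adaptor Sel1l had log2 differences of -0.10 and 0.05, on either side of 0.

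**Figure D3:**
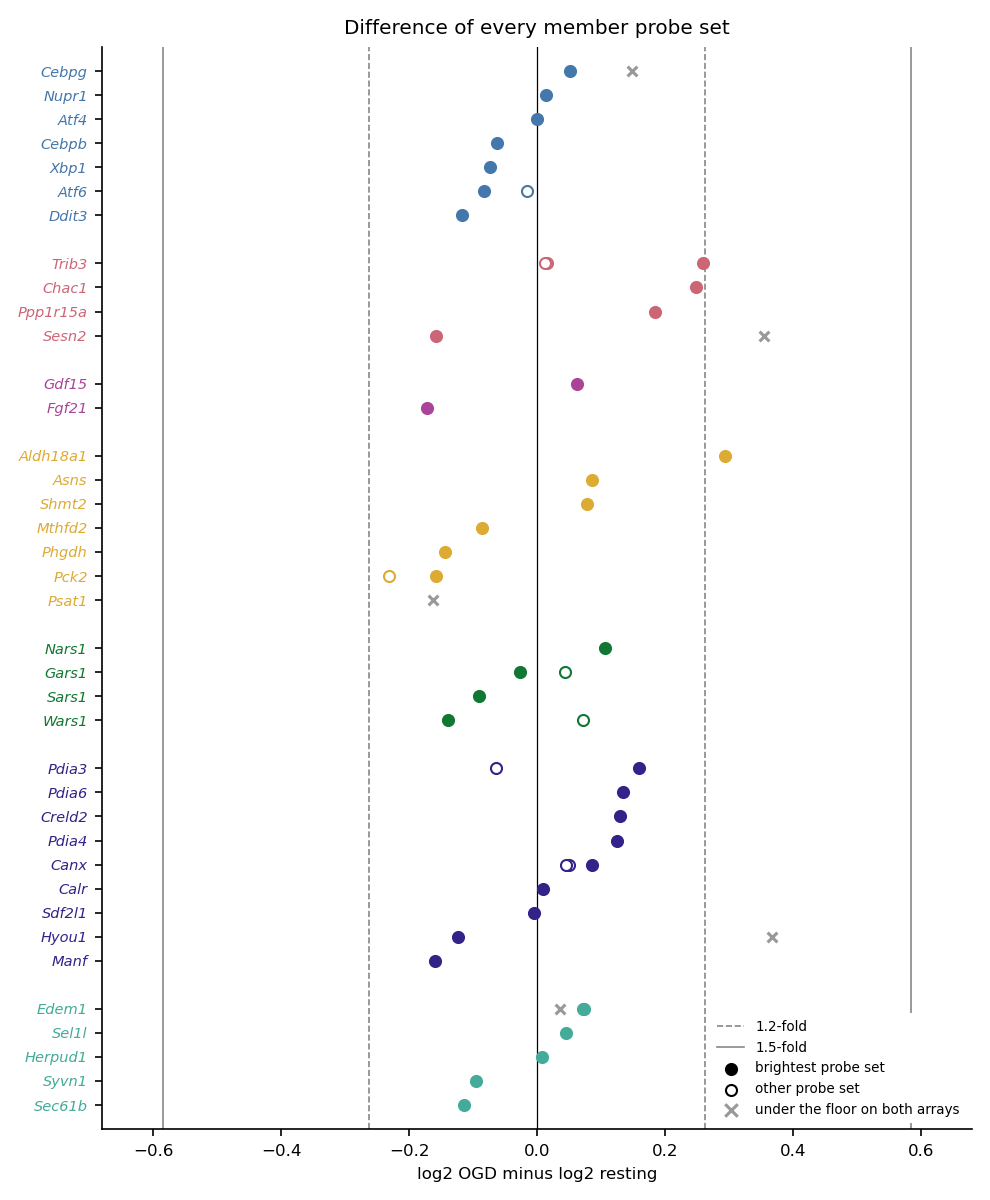
Log2 difference, OGD minus resting, of all 52 probe sets of the members, grouped by role. Filled points are the brightest probe set of a gene, open points its other probe sets above the floor and crosses probe sets under the floor on both arrays; dashed and solid lines mark 1.2-fold and 1.5-fold, and no point reaches 1.5-fold.

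Grouped by promoter sequence, the members again spanned 0. The 7 members with the composite site had a median log2 difference of 0.01, from -0.17 for Fgf21 to 0.26 for Trib3, with 5 higher and 2 lower. The 24 measured members whose promoter lacked it had a median of -0.003, with 11 higher, 12 lower and 1 equal. The 6 measured members with either stress element had a median of 0.01, from -0.12 for Hyou1 to 0.13 for Creld2. The 25 without had a median of 0, with 12 higher and 12 lower.

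The rest of the pathway was read from a list of 85 other genes, of which 69 were measured. Of these 30 were higher, 35 lower and 4 equal, with a median log2 difference of -0.01, and 0 were higher and 3 lower by at least 1.2-fold, beside 3.56% of all measured genes higher and 3.97% lower, so the lower count was near that of all genes. Those 3 were Ppib, a prolyl isomerase of the endoplasmic reticulum, Iars1, the isoleucine tRNA synthetase, and Mbtps1, the site-1 protease that cleaves ATF6. Ppib had 1149 on the OGD array and 1411 on the resting array and was 1.23-fold lower. Iars1 had 23.2 on the OGD array and 28.2 on the resting array, near the floor, and Mbtps1 had 82.7 on the OGD array and 99.3 on the resting array, a log2 difference of -0.26.

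Among the sensors, Eif2ak3, the gene of PERK, had 31.2 on the OGD array and 30.2 on the resting array, while Ern1, the gene of IRE1, had no probe set assigned to it alone and is not analysed here. Of eIF2 and its regulators, Eif2s2, the beta subunit, had a log2 difference of 0.13 and Ppp1r15b, the constitutively expressed counterpart of Ppp1r15a, -0.12. Of the other stress transcription factors, Creb3 had -0.08 and Creb3l1 -0.05. Atf3, a factor strongly induced by many stresses, was under the floor on both arrays, at the same intensity of 8.0003 on each. Of the other ATF4 targets, the mTORC1 inhibitor Ddit4 had -0.20 and the aminotransferase Got1 -0.21.

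Vars1, the valine tRNA synthetase, had -0.18 and -0.26 in its 2 probe sets, and Erp29, a folding factor, had -0.26. Nploc4, a cofactor of the extracting ATPase p97, had -0.23, and its other probe set 0.01. Ssr3, a subunit of the translocon-associated protein complex, had 202.2 on the OGD array and 169.7 on the resting array in its brightest probe set. Its other probe sets had 119.9 and 46.5 on the OGD array and 129.6 and 30.9 on the resting array. The log2 differences of Ssr3 were 0.25, -0.11 and 0.59, so 1 probe set was past 1.5-fold while another pointed the other way.

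**Figure D4:**
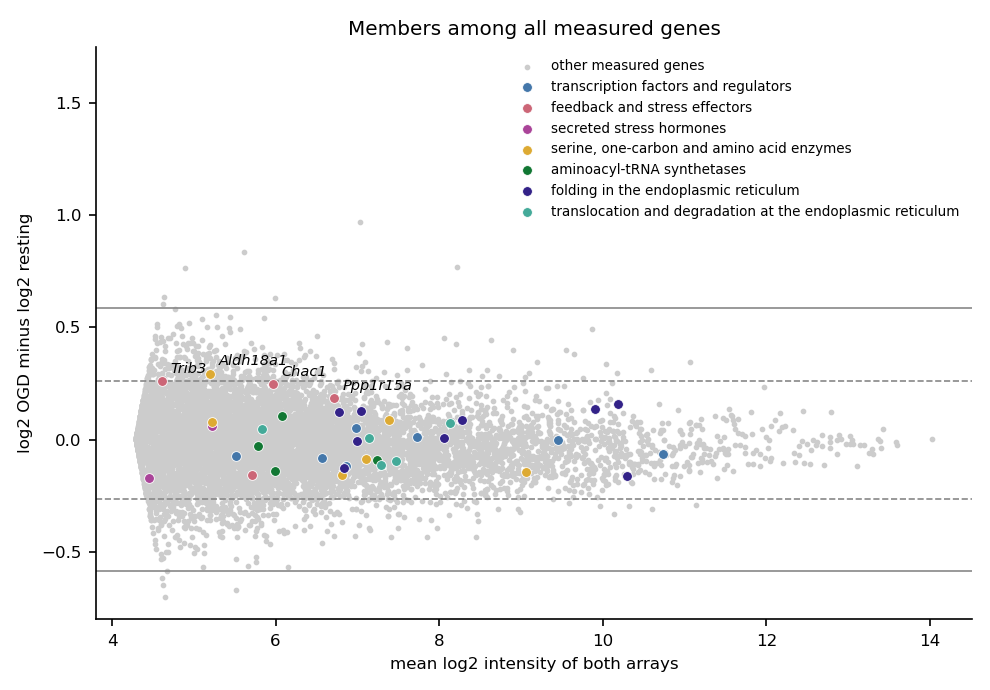
Log2 difference, OGD minus resting, against mean log2 intensity of both arrays for the 9580 measured genes, with the 37 measured members coloured by role. Dashed and solid lines mark 1.2-fold and 1.5-fold; the members lie within the cloud of all genes, and only Aldh18a1 is past the dashed lines.

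Marker genes checked the label of the cells. All 10 microglial markers, among them Aif1, Itgam, Cx3cr1, P2ry12 and Cd68, were measured, and all 10 were lower on the OGD array. Their median log2 difference was -0.10. Several lay near the floor. Csf1r had 19.3 on the OGD array, under the floor, and 21.9 on the resting array. Tmem119 had 23.1 and 23.3, and Cx3cr1 29.9 and 31.6. The summed intensity was 692.9 on the OGD array and 732.7 on the resting array, of which Cd68 alone gave 359.7 and 370.7. Of 5 astrocyte markers 3 were measured and all 3 were higher, with a median log2 difference of 0.43. Gfap and Slc1a2 were each 1.35-fold higher, a larger difference than that of any measured member, at intensities of 36.9 and 32.0 on the OGD array and 27.4 and 23.8 on the resting array. The summed intensity over the 5 was 119.0 on the OGD array and 98.8 on the resting array, while Aqp4 and Aldh1l1 were under the floor on both arrays. Of the neuronal markers Syn1 alone was measured, Rbfox3, Tubb3 and Snap25 being under the floor on both arrays, with a summed intensity of 98.0 on the OGD array and 84.8 on the resting array. Of the oligodendrocyte markers Mbp and Sox10 were measured, with a sum that included Mog of 83.9 on the OGD array and 81.4 on the resting array. Of the endothelial and fibroblast markers Col1a1 alone was measured, with a sum of 82.9 on the OGD array and 71.1 on the resting array. In such bulk samples fewer cells of a type and less RNA per cell cannot be told apart, and the part of these shifts in the members' differences was not tested. Of 10 genes known to be induced by hypoxia 7 were measured, with a median log2 difference of 0.02, among them Slc2a1 and Hmox1 with 0.22 each, Ankrd37 with -0.30, and Vegfa and Bnip3 with equal values on both arrays.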

How the data were processed

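Total RNA of microglial cells was extracted with TRIzol and labelled with biotin after oligo(dT)-primed amplification, per the labels' protocols. The deposited values are intensities on a linear scale, from 2.73 to 19778 on the OGD array and from 2.75 to 19692 on the resting array. How the authors corrected, summarised and scaled them is not given in the sources used here. Quartiles were 8.47 and 48.0 on the OGD array and 8.45 and 48.2 on the resting array, so a difference shared by most genes may not be visible.

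Of 31099 probe sets, 57 were controls, 20826 named 1 gene, 436 several and 9780 none. Symbols were updated by Entrez ID through the RefSeq table of GRCr8, which held 20758 of them. The files name no genome build, so coordinates are those of the RefSeq promoters. A gene was represented by its probe set with the highest mean, and values under the floor were set to it. With 1 array per group there was no test, and folds of 1.5 and 1.2 were counted. The number of arrays limits the precision. All members were named, and of the other pathway genes Eif2ak3, Ern1, Atf3 and the 2 largest differences per list above the floor on both arrays. The members and lists were chosen with earlier results of these data known. Calculations used Python 3.11.15, pandas 2.3.3 and statsmodels 0.14.6 and were tested on simulated data. The simulated effects were 1.5-fold or more in genes well above the floor, and differences of unchanged genes were capped under 1.5-fold. Smaller differences and genes near the floor were therefore not tested in this way. Alternatives changed the floor, scaling, pseudocount and probe sets.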

Additional observations from a re-analysis of the deposited data

How the results depend on the processing

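The 12 alternatives were floors at the 30th or 70th percentile or none, restriction to genes above both floors, a pseudocount at the 25th percentile, centring, quantile normalization, a loess trend of span 0.3 removed, the mean over probe sets, the next brightest probe set, and leaving out suffixed or exactly equal probe sets. Under all 12, 0 members were higher and 0 lower by 1.5-fold, and 0 were lower by 1.2-fold. The count higher by 1.2-fold was 0 with the 70th percentile floor, the pseudocount or the next brightest probe set, and 2 after centring. The members' median lay between 0 and 0.04. The next brightest probe sets covered 8 members, 5 higher and 3 lower, and the only feedback effector and the only amino acid enzyme among them had 0.0152 and -0.23. A change was called small when under the SD between probe sets of 1 gene, 0.15. That held for 403 of 409 values of single members. This rule is wide, since the SD of the members' differences was itself 0.13. Changes of sign within it, as for Gars1, counted as small. Also, 27 of the 38 members had 1 probe set, so alternatives of the probe set could not give them another value. Of 226 counts and medians over genes, 25 moved, counts when they changed by more than 1.5-fold or to or from 0.

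Counts over all genes moved with the floor. With the 30th percentile floor 23 were higher and 14 lower by 1.5-fold, and 561 and 577 by 1.2-fold, among 11857 genes. With the 70th percentile floor these were 4 and 0, and 148 and 197, among 6641 genes. Without a floor they were 35 and 23, and 796 and 793, among 14217 genes. The main setting had 9580 genes. By 1.5-fold, 2 were lower among genes above the floor on both arrays and 0 with the pseudocount. In the next brightest probe sets 2 were higher by 1.5-fold, and 107 higher and 107 lower by 1.2-fold, among 2074 genes. The cause was not tested, beyond the fewer or more genes entering. No paired analysis was possible because each group has 1 array. Signal near the floor limits Trib3, Fgf21, Gdf15, Shmt2 and Aldh18a1, the 5 measured members within 2-fold of it.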

Other observations

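The sizes of the differences between the arrays repeat across unrelated probe sets. Rounded to 8 decimals on the log2 scale, 22689 of 31099 probe sets, or 73.0%, had a size of difference that at least 1 other probe set also had. Leaving aside the 2701 probe sets with a difference of 0, the share was 70.4%. Among probe sets above both floors it was 60.3%. By intensity on the resting array it was 25.2% in the brightest 10% of probe sets and 92.2% in the dimmest 10%. The most frequent size other than 0, 0.08, was held by 245 probe sets in 1 direction or the other.

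Members of the ATF4 and unfolded protein response programs take part in this repetition. The brightest probe set of Atf6 had a size of difference found in 240 probe sets, itself included, and that of Canx one found in 230. For Trib3 the count was 28, for Sec61b 28, for Sesn2 18 and for Ddit3 and Pdia4 7 each. For Aldh18a1, Chac1, Ppp1r15a, Pdia3, Pdia6, Creld2 and Manf the size occurred once. In all, 13 of the 38 brightest probe sets of members shared their size with another probe set. What produced the repeated sizes was not tested.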
